A study of Mus musculus with 3 samples.

Results

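The voltage-gated calcium channel alpha1 genes are 10 mouse genes that each encode the pore of a calcium channel, and their neighbourhoods held 12 of the 3668 Atoh7 peaks of the deposited list. The genes were taken as a named family, and a peak belonged to a gene when its midpoint lay inside the RefSeq gene body or within 100 kb of either end, a stretch called the window below. The peaks were thus chosen by their measured positions, so the counts below are a description and carry no test. Atoh7 belongs to the basic helix-loop-helix (bHLH) transcription factors and is made in neurogenic retinal progenitors, and CUT&RUN uses an antibody to direct a nuclease that releases the DNA beside the bound protein. The libraries came from C57Bl6/J retina at embryonic day 14, and 2 were made with the Atoh7 antibody, replicates 1 and 2, and 1 with IgG. No genotype or treatment is given for them in the labels. The values are 1 list of positions and widths on mm10, with no height, no value per library and no IgG value, so depth is unknown and replicates could not be compared. The list holds no expression value, so the labelled tissue could not be checked against marker genes.

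An alpha1 subunit carries the voltage sensors and the pore, and its type sets the voltage and speed at which the channel opens. L-type channels (the Cav1 group) tend to stay open for long. In the mature retina they drive transmitter release at the ribbon synapses of photoreceptors and bipolar cells. P/Q-, N- and R-type channels (the Cav2 group) serve release at conventional synapses, and T-type channels (the Cav3 group) open near the resting potential and close quickly. A bHLH dimer binds E-boxes, hexamers with the letters CANNTG.

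Among the 7 genes whose starts the RefSeq promoter table of build GRCm38.p6 gives (the assembly that mm10 names), 1 had a peak at an annotated start. This was Cacna1b, the N-type channel gene, and its sequence is shown because it is the one peak of the 12 that overlapped a promoter of that table. The bases of the promoter that lie before the start and inside the peak are printed 5′ to 3′ on the minus strand, chr2:24763153-24763331, with the E-box in capitals.
Cacna1b: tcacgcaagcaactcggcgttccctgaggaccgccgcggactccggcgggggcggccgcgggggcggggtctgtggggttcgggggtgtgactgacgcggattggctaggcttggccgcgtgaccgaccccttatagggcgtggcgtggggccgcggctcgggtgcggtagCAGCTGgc
The capitals spell CAGCTG, which reads the same on both strands and begins at position -8 counted from the annotated start. For comparison, the CAGCTG hexamers of the promoters of 3 other family members, none of which overlapped a peak, are given with 12 bases on either side. The Cacna1s stretch is chr1:136052676-136052705 on the plus strand, that of Cacna1d is chr14:30353652-30353681 on the minus strand, and that of Cacna1c is chr6:119196365-119196394 on the minus strand.
Cacna1s: tggaaggaatgaCAGCTGcctggccgcagg
Cacna1d: gccgcaggcgggCAGCTGgggcgcggcgcg
Cacna1c: agctcggattcaCAGCTGagtgacagggcc
These begin at positions -123, -183 and 28 from the starts of Cacna1s, Cacna1d and Cacna1c in that order. The same hexamer thus stood at starts with and without a peak in this list.

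The promoter table gives 250 bases before and 50 after each start, and it held 10 promoters for those 7 genes. It held none for Cacna1a, Cacna1g and Cacna1h. Cacna1h had no peak in its window, and so none at a start within its gene body. At Cacna1a and Cacna1g, a peak at a start could not be identified, although Cacna1a had 0 peaks within 1 kb of its ends. CAGCTG stood in 4 of the 10 promoters, against 16.4% of 32619 promoters of all genes and 28.0% of the 898 promoters that overlapped an Atoh7 peak. Any CANNTG, on either strand and counting the CAGCTG matches, stood in 8 of the 10 promoters, against 72.3% of all promoters and 67.1% of those that overlapped a peak. CAGATG, whose reverse complement is CATCTG, stood in 4 of the 10 promoters, against 17.1% of all and 15.7% of those with a peak. CATATG stood in 0 of the 10, against 3.82% of all and 1.45% of those with a peak. Of these motifs, CAGCTG was the one with a higher share in promoters that overlapped a peak, a difference that was not tested. The Cacna1f promoter had no CAGCTG and 4 other E-boxes, and the promoters of Cacna1e and of the outermost Cacna1d start had no E-box. The Cacna1e start in the promoter table, at 154725920 on the minus strand, lies inside the gene body, which runs to 154884785. The sequence at that outer end was not searched. A match is a description of the letters and not a binding site.

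Of the 10 alpha1 genes, 7 had a peak in the window (70%, exact 95% binomial interval 34.8 to 93.3%), against 34.9% of 21627 protein-coding genes. The family was chosen with earlier results of these data known, so the interval is not a test against that share. Inside the gene body, 6 of the 10 had a peak, against 7.17% of protein-coding genes. Within 1 kb of a gene end, 3 of the 10 had a peak, against 4.3%. The family is long, with a median gene body of 135 kb against 17.3 kb for all protein-coding genes, so these shares were also read by length below. The median alpha1 gene had 1 peak in its window, and the median protein-coding gene had 0.

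**Figure D1:**
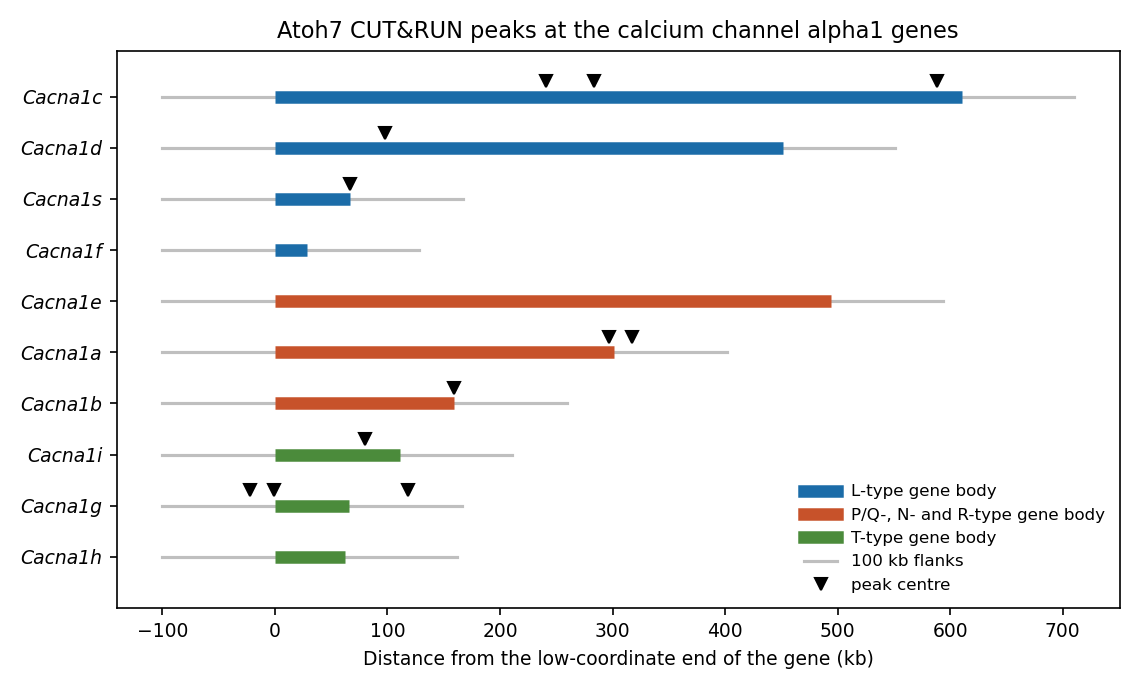
Positions of the 12 peak centres (triangles) along the 10 alpha1 genes, drawn to one scale in kb from the low-coordinate end of each gene, with gene bodies as thick bars and the 100 kb flanks as thin lines. Cacna1c has 3 peaks inside the gene, Cacna1g has 3 outside it, and Cacna1e, Cacna1f and Cacna1h have none.

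The L-type genes held 5 peaks, all of them centred inside gene bodies. Cacna1c (Cav1.2), the L-type channel of heart, smooth muscle and neurons, is the longest of the family at 610 kb (chromosome 6, 118587240 to 119197384, minus strand) and held 3. The first, at 118827584 to 118827851, and the second, at 118870145 to 118870539, lay deep in the gene. They were centred 281 and 238 kb downstream of the annotated start at 119108495, and 69.7 and 112 kb upstream of the innermost start at 118757974. The third, at 119175322 to 119175573, was centred 21.0 kb downstream of the outermost start. It also lay inside Dcp1b, an mRNA decapping gene that overlaps Cacna1c, with its centre 195 bp from an end of Dcp1b. The 3 Cacna1c peaks therefore stood away from every annotated start of Cacna1c, with 42.6 kb between the first pair and 305 kb between the second and the third.

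Cacna1d (Cav1.3), the L-type channel of neurons, hair cells and pacemaker cells, spans 451 kb (chromosome 14, 30039941 to 30491156, minus strand) and held 1 peak. This peak, at 30137257 to 30137444, was 188 bp wide, the narrowest of the 12. It was centred 216 kb downstream of the inner annotated start and 97.4 kb from the low-coordinate end of the gene. Cacna1s (Cav1.1), the voltage sensor of skeletal muscle, spans 67.0 kb (chromosome 1, 136052806 to 136119822, plus strand). Its single peak, at 136118905 to 136119272, was centred 734 bp inside the end of the gene that lies opposite its start, 66.3 kb downstream of that start. Cacna1f (Cav1.4), the channel of photoreceptor synapses, is the shortest member at 28.1 kb (chromosome X, 7607103 to 7635196). It had no peak in its window, and the nearest peak lay 249 kb away.

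The P/Q-, N- and R-type genes held 3 peaks. Cacna1b (Cav2.2, N-type), a channel of presynaptic terminals, spans 159 kb (chromosome 2, 24603860 to 24763200, minus strand). Its peak, at 24763020 to 24763331 and 312 bp wide, was centred 23.5 bp upstream of the start in the promoter table and is the one printed above. It counted as a body peak because the RefSeq gene body runs beyond that start. Cacna1a (Cav2.1, P/Q-type), the main release channel of many central synapses, spans 302 kb on chromosome 8 from 84338631 to 84640251. One peak, at 84634988 to 84635537, lay inside it, 4.99 kb from the high-coordinate end, and inside the long noncoding RNA gene Gm39212, which overlaps it. The other, at 84655792 to 84656466, lay 15.9 kb beyond the same end and 5.2 kb from Ier2, an immediate early gene, which was nearer to it than Cacna1a was. At 675 bp this was the widest of the 12 peaks. Cacna1e (Cav2.3, R-type), a neuronal channel, spans 494 kb on chromosome 1 from 154390806 to 154884785 and had no peak in its window of 694 kb, the nearest being 345 kb away.

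The T-type genes held 4 peaks, of which 1 was inside a gene body. Cacna1g (Cav3.1), known for burst firing in thalamic neurons, spans 66.0 kb (chromosome 11, 94408391 to 94474400) and had 3 peaks, all outside it. The nearest, at 94407806 to 94408057, was centred 460 bp beyond the low-coordinate end of the gene, and Cacna1g was the nearest protein-coding gene to it. Whether that end is the start of Cacna1g was not determined, because the promoter table does not hold this gene. The other Cacna1g peaks lay inside neighbouring genes, at 22.1 kb in Abcc3, a transporter gene, and at 52.2 kb in Mycbpap. Cacna1i (Cav3.3), another neuronal T-type gene, spans 111 kb (chromosome 15, 80287238 to 80398292, plus strand). Its peak, at 80366799 to 80367145, was centred 79.7 kb downstream of the start. Cacna1h (Cav3.2), a T-type gene of sensory neurons among other cells, spans 62.05 kb on chromosome 17 from 25374285 to 25436334 and had no peak, the nearest lying 326 kb away. At the 100 kb limit of the window, the farthest peak inside it was the one at 52.2 kb from Cacna1g, and the closest outside it was 114 kb from Cacna1s.

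Among the 3 channel types, the counts were few and their intervals overlapped. The L-type genes had 5 peaks in 1156 kb of gene body, or 0.432 per 100 kb (95% Poisson interval 0.140 to 1.01), and 3 of the 4 genes held one. The P/Q-, N- and R-type genes had 2 body peaks in 955 kb, or 0.209 per 100 kb (0.0254 to 0.757), with 2 of 3 genes holding one. The T-type genes had 1 body peak in 239 kb, or 0.418 per 100 kb (0.0106 to 2.33), in 1 of 3 genes. With the flanks, the 5, 3 and 4 peaks of the L-type, the P/Q-, N- and R-type and the T-type windows came to 0.256, 0.193 and 0.477 per 100 kb in that order, with intervals of 0.0830 to 0.596, 0.0398 to 0.564 and 0.130 to 1.22. The order of the types thus depended on whether the flanks were counted. It also depended on peak width, since the wider 50% of peaks gave 1, 2 and 1 peaks, or 0.0511, 0.129 and 0.119 per 100 kb of window for the same types in that order. With all peaks, each type's interval held the values of the other types. The intervals treat peaks as independent and cover counting error only, so they are not a test between the types. The T-type value with flanks included both Cacna1g peaks that lie inside other genes. Both L-type values included the Cacna1c peak that also lies inside Dcp1b. Cacna1g reached 1.13 peaks per 100 kb of window (0.233 to 3.296), the highest of the 10, and Cacna1d had 0.154, the lowest of the 7 genes with a peak.

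**Figure D2:**
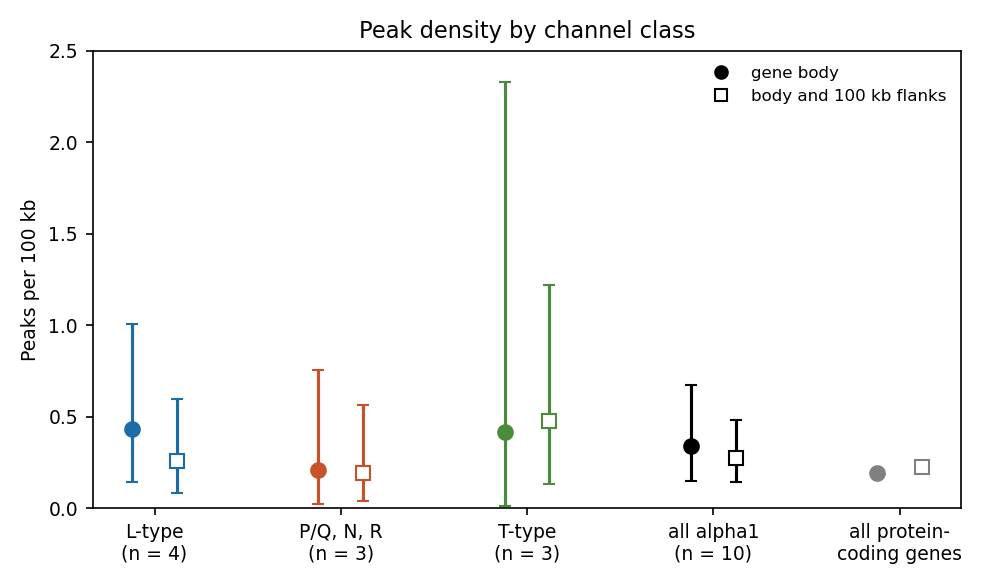
Peaks per 100 kb of gene body (filled circles) and of gene body with 100 kb flanks (open squares) for each channel type, for all 10 alpha1 genes and for all protein-coding genes, with bars showing 95% Poisson intervals for the alpha1 values. The intervals of the 3 types overlap, and that of the T-type gene bodies runs from 0.0106 to 2.33.

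Taking all 10 genes, the gene bodies held 0.340 peaks per 100 kb (0.147 to 0.671), against 0.191 for all protein-coding genes. The windows held 0.276 per 100 kb (0.143 to 0.482). The windows of all protein-coding genes held 0.225, and the whole span of chromosomes 1 to 19 and X held 0.140. In the 0.225, windows of neighbouring genes overlap, and a peak counts once for each window that holds it. The 12 peaks of the alpha1 windows were all different. Both intervals are wide. Because the family was chosen with earlier results of these data known, they are not a test against any of these values.

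Length did not order the window counts within the family. In gene bodies, the longest gene, Cacna1c, held 3 peaks, and the 3 shortest, Cacna1g, Cacna1h and Cacna1f, held 0. Each of the others held 1, except Cacna1e with 0, so body counts followed length apart from Cacna1e. The window counts were as follows. The 3 genes of 400 kb and over, Cacna1c, Cacna1e and Cacna1d, had 3, 0 and 1 peaks, where 49% of 351 protein-coding genes of that length had a peak in the window and 43.3% had one in the body. Cacna1a, at 302 kb, had 2, in a class of 200 to 400 kb where 46.4% had a peak in the window and 32% in the body. Cacna1b and Cacna1i, of 100 to 200 kb, had 1 each, and of that class 41.4% had a peak in the window and 20.5% in the body. Cacna1s, Cacna1g and Cacna1h, at 62.05 to 67.0 kb, had 1, 3 and 0, although their lengths are nearly equal, and of protein-coding genes of 50 to 100 kb 37% had a peak in the window and 11.4% in the body. Cacna1f, under 50 kb, had 0, in a class where 33.2% had one in the window and 3.68% in the body.

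When each alpha1 gene was given the mean count of protein-coding genes of its own length class, the 10 windows would hold 7.49 peaks, and 12 were found. The 10 bodies would hold 3.94, and 8 were found. By type, the bodies held 5 against 1.79 for L-type genes, 2 against 1.60 for P/Q-, N- and R-type genes and 1 against 0.552 for T-type genes. The L-type count includes the Cacna1c peak that also lies inside Dcp1b. Protein-coding genes under 50 kb had 0.260 peaks per 100 kb of body, those between 50 and 400 kb 0.187 to 0.201, and those of 400 kb and over 0.114. Cacna1c had 0.492, with a wide interval (0.101 to 1.44) that is not a test against the value of its class. These are descriptions of 1 list, and no test of the family was made.

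**Figure D3:**
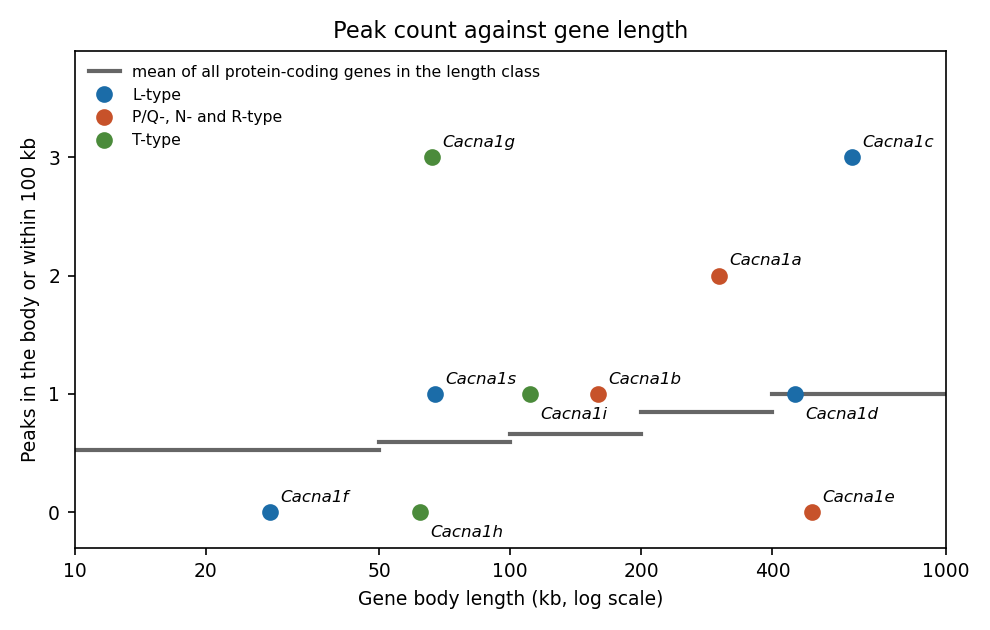
Peaks in the gene body or within 100 kb against gene body length in kb (log scale) for the 10 alpha1 genes (points), with the mean count of all protein-coding genes in 5 length classes as horizontal lines; the lowest class also takes in genes under 10 kb. Cacna1c and Cacna1g both have 3 peaks at 610 and 66.0 kb, and Cacna1e has 0 at 494 kb.

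Other protein-coding genes shared the pattern of Cacna1c. In all, 35 genes had the same counts of 0 peaks at the ends, 3 elsewhere in the body and 0 in the flanks. The closest to it in length were Magi1, a scaffold protein gene, at 608 kb, Frmd4a at 596 kb and Dscam, a neuronal cell adhesion gene, at 584 kb.

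Peaks at the alpha1 genes had a median width of 329.5 bp (range 188 to 675 bp, n = 12 peaks), against 381 bp for all peaks (quartiles 269 and 486 bp). Of the 12, 4 were wider than the median of the list, namely both Cacna1a peaks, 1 Cacna1c peak and the Cacna1g peak inside Mycbpap. The 5 L-type peaks were 188 to 395 bp wide, and the 3 P/Q-, N- and R-type peaks 312 to 675 bp. The 4 T-type peaks ranged from 191 to 622 bp, so the types overlapped. Width is not a measure of occupancy.

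**Figure D4:**
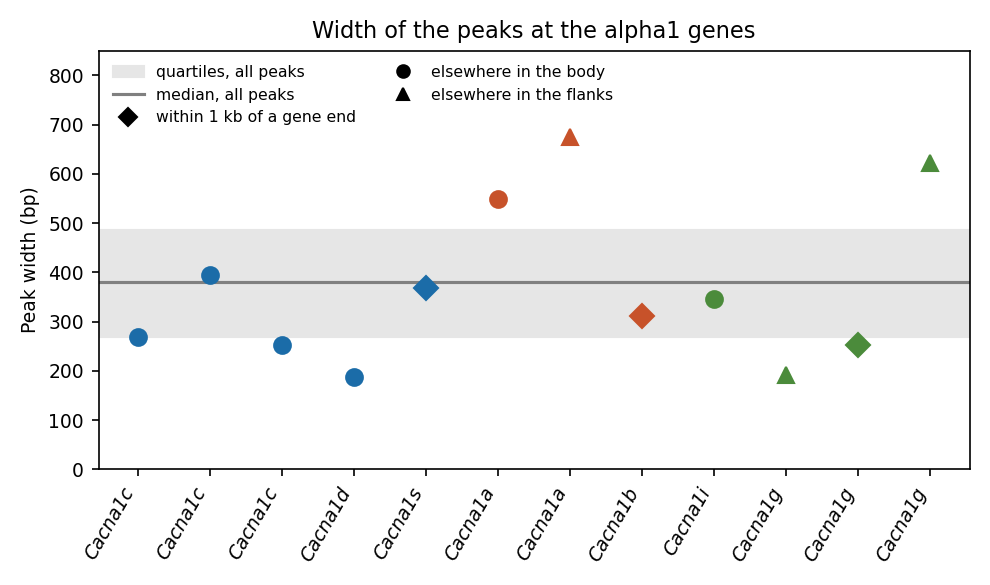
Width in bp of each of the 12 peaks at the alpha1 genes, coloured by channel type (L-type at the left, then P/Q- and N-type, then T-type) and shaped by position, with the median (line) and quartiles (band) of all peaks. The widest, at 675 bp, lies in the flank of Cacna1a, and the narrowest, at 188 bp, inside Cacna1d.

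All 3668 peak names begin with Atoh7_R1, and how replicate 2 entered the list was not analysed here. The names carry running numbers that rise along the list to 7185, of which 51.1% are present, so gaps in the numbers mark entries that are not in it. At Cacna1s no number was missing between its peak (299) and the listed peaks on either side (298 and 300). Between the first pair of Cacna1c peaks 1 number was missing (5757 and 5759 were present), and between the second and the third none was. Between the listed peaks that bracket each window, 8 of 10 numbers were missing at Cacna1a, 4 of 7 at Cacna1c, 4 of 5 at Cacna1d, 3 of 3 at Cacna1e and 1 of 1 at Cacna1h. Over the 9 genes with a listed peak on either side, 28 of 40 were missing, so that 30% were present. These counts leave out the bracketing peaks, which are present by definition, and so are not on the same footing as the 51.1% of the whole list. The numbers give no position, so whether those entries lay in the windows is not known. The step that removed them was not analysed here.

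The auxiliary subunits bind the pore and set its delivery to the membrane and its gating. Of 16 auxiliary subunit genes, 12 had a peak in the window (75%, against 34.9% of protein-coding genes). In the body, 5 had one (31.3%, against 7.17%). Their median length was 80 kb. Of protein-coding genes of 50 to 100 kb, 37% had a peak in the window and 11.4% in the body. Neighbouring members share peaks, so the 12 genes rest on 16 different peaks, 1 of which is also a Cacna1c peak. Split by subfamily after the values were seen, a body peak was present in 4 of 4 Cacna2d genes, which encode the extracellular alpha2delta subunits, in 0 of 4 Cacnb genes, which encode the cytoplasmic beta subunits, and in 1 of 8 Cacng genes. Cacna2d1 (440.2 kb) held 3 body peaks, Cacna2d3 (818 kb) held 2, and Cacna2d2 (129.6 kb) and Cacna2d4 (116 kb) held 1 each. The Cacna2d genes are 116 to 818 kb long. Of protein-coding genes, 20.5% of those of 100 to 200 kb and 43.3% of those of 400 kb and over had a body peak. The median Cacng gene is 38.3 kb long, and 3.68% of protein-coding genes under 50 kb had a body peak. The median Cacnb gene is 134.9 kb long. The subfamilies thus differ in length, and the contrast between them was not tested. Cacna2d4 lies beside Cacna1c on chromosome 6, and its body peak at 119329264 to 119329607 is the closest peak outside the Cacna1c window, 132 kb from that gene.

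The sodium channel alpha genes and Nalcn share the 4-domain plan of the calcium channel pore. They held peaks at shares near those of protein-coding genes of all lengths, but below those of genes of like length. In their windows 3 of 11 had one (27.3%, against 34.9% of protein-coding genes), and in the body 1 of 11 did (9.09%, against 7.17%). Their median length was 111 kb, and of protein-coding genes of 100 to 200 kb 41.4% had a peak in the window and 20.5% in the body. Their bodies held 0.0646 peaks per 100 kb, against 0.191 for all protein-coding genes. The body peak was in Scn8a, a sodium channel of the axon initial segment, 40.1 kb from the nearer end of the gene. The difference from the alpha1 calcium channel genes was not tested. Of 25 genes of channel partners and calcium signalling, 9 had a peak in the window (36%, near the 34.9% of all protein-coding genes) and 1 in the body (4%, against 7.17%). That gene was Cabp1, which encodes a calcium-binding regulator of Cav1 and Cav2 channels, with a peak of 690 bp centred 7.53 kb from the nearer end. The median length of the 25 genes was 96.7 kb. In the class of 50 to 100 kb, 37% of protein-coding genes had a peak in the window and 11.4% in the body. The bodies of the 25 genes held 0.0187 peaks per 100 kb, against 0.191 for all protein-coding genes. Several of the 25, such as Kcnma1, Ryr2 and Ryr3, belong to the class of 400 kb and over, which held 0.114. The value of 0.0187 rests on 1 peak, and its difference from the others was not tested.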

How the data were processed

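CUT&RUN was done on embryonic day 14 retina with an Atoh7 antibody (2 libraries) and IgG (1 library), grouped by sample title. On mm10, the submitters' processing notes name MACS2 2.2.7.1, Bowtie2 2.3.5, Picard 2.0.1, bedtools and SAMtools, without order or settings. The authors deposited 3668 peaks as start, end and width in bp, per the file headers. Not given in the sources used here are depth and how replicate 2 and IgG entered that list.

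Peak midpoints (3662 on the autosomes and X) were matched to 21627 protein-coding genes of a RefSeq table without exons. E-boxes were searched in promoters only, and peak sequence was not used here. All 10 alpha1 genes were named, with every peak in or within 5 kb of a body and the nearest flank peak, up to 4 genes with body peaks from each other list, and up to 3 genes with the counts of the member with most body peaks. The other flank peaks and the split by subfamily were chosen after their values were seen. Members and lists were chosen with earlier results of these data known. No test was run. Alternatives were flanks of 50 and 10 kb, gene body only, overlap of 1 bp, the wider 50% of peaks, and the nearest gene only. Counting was checked on simulated peaks. Tools were scipy 1.17.1, pandas 2.3.3, matplotlib 3.10.9 and numpy 2.4.6 under Python 3.11.15.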

Additional observations from a re-analysis of the deposited data

How the results depend on the processing

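Of 54 alternative values, 39 stayed within 1.5 times the reported count or within the interval of the reported value. With the wider 50% of peaks, 4 peaks lay at 3 alpha1 genes, 2 of the genes had a body peak, L-type and T-type genes had 1 peak each (0.0511 and 0.119 per 100 kb of window), P/Q-, N- and R-type genes had 2 (0.129 per 100 kb, then the highest of the types), and 19.9% of protein-coding genes had a peak. The T-type count was 2 with a flank of 10 kb, 1 in gene bodies only and 2 with the nearest gene only. The share of protein-coding genes with a peak was 24.4% with a flank of 50 kb, 12.4% with 10 kb, 7.17% in gene bodies and 11.2% by nearest gene. Apart from the construction of these settings, the cause of the changes was not tested. No paired analysis was possible because the list has no value per library. Leaving out a replicate was not possible for the same reason, and read depth is unknown.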
